A study of Mus musculus with 78 samples.

Results

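For mitosis and chromosome segregation 43 genes were listed, and 42 of them were found by symbol among the 18194 genes of the arrays, with Ccnb1 not analysed here. Where several probe sets name a gene, the brightest on average across the 78 arrays stood for it, so the choice used no difference between ages or genotypes. The genes were grouped by role into 6 of the spindle checkpoint, 8 kinases, cyclins and regulators of mitotic entry, 4 of the chromosomal passenger complex, 8 of the centromere and kinetochore, 6 of the spindle, its midzone and cytokinesis, 8 of chromosome structure including condensin, and separase with its inhibitor securin.

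In mitosis, kinases led by Cdk1 with its cyclins trigger chromosome condensation and spindle assembly, kinetochores couple centromeres to microtubules, and the spindle checkpoint holds back the anaphase-promoting complex until every chromosome is attached. Separase then opens cohesin and the cell divides at the midzone. In the embryonic brain the dividing cells are mainly radial glia and intermediate progenitors, and after birth division continues in glial precursors and in a few neurogenic zones such as the external granule layer of the cerebellum. LIS1, NDEL1, doublecortin and 14-3-3 epsilon act with dynein and microtubules in neuronal migration, and LIS1 and NDEL1 also in spindle orientation of dividing progenitors.

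The study asked whether mutations in members of the LIS1 complex change brain gene expression alike or differently. Total RNA of mouse brain was hybridised to Affymetrix arrays at embryonic day 14 (E14), at birth (P0) and at postnatal day 14 (P14), with 3 arrays called biological replicates in each of 26 groups. At E14 the mutants were Lis1 ko/cko, Lis1 ko/+, Ndel1 ko/cko, Ndel1 ko/+, Dcx ko/Y and 14-3-3 epsilon ko/ko, and the controls were wild types of mixed background A and of mixed background B. At P0 the mutants were Lis1 ko/cko, Lis1 ko/+, Ndel1 ko/cko, Ndel1 ko/+, Dcx ko/Y and, on the inbred 129s6 background, Ndel1 ko/+ and 14-3-3 epsilon ko/ko, and the controls were mixed A, mixed B and inbred 129s6 wild types. At P14 the mutants were Lis1 ko/cko, Lis1 ko/+, Ndel1 ko/cko, Ndel1 ko/+ and a further Ndel1 ko/+ group labelled as mixed, with mixed A, mixed B and inbred wild types as controls. Here ko is a null allele by convention and cko a conditional one. The Cre driver, the cells in which a cko allele was recombined, the sex of the mice and the part of the brain taken are not given in the sources used here.

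All levels below are log2 values of 1 probe set, so a difference of 1 is a factor of 2 on the linear scale and levels of different genes are not set against each other. A gene was called changed at an adjusted p under 0.05 in limma over all genes tested. A mutant had to pass against mixed A and mixed B alike, and a difference between ages had to pass within mixed A and within mixed B, with the larger p of the pair taken and the mean difference given. The number of arrays limits the precision, since 3 per group were hybridised.

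As a check of the brain label, the mean log2 level of 8 neuron genes was 10.28 to 11.76 on the 78 arrays. The Dcx ko/Y arrays were the lowest of their age, at 10.28 to 10.35 at E14 and 10.66 to 10.77 at P0. Dcx averaged 4.58 in Dcx ko/Y at E14 and 4.30 at P0, with mixed wild types at 11.84 or more. The part of the loss of Dcx itself in those low neuron means was not tested. Pafah1b1, which encodes LIS1, averaged 9.84 in Lis1 ko/cko and 10.07 in Lis1 ko/+ at E14, with mixed A at 10.38 and mixed B at 10.43. At P0 it averaged 10.08 in Lis1 ko/cko and 10.01 in Lis1 ko/+, below mixed A (10.51) but not below mixed B (9.95). At P14 it averaged 10.36 in ko/cko and 10.21 in ko/+, with mixed A at 10.85 and mixed B at 10.48. Its mean was lower in ko/cko than in ko/+ at E14 only. Several arrays stood apart from their labels or groups. Replicate 2 of Dcx ko/Y at P0 carried Xist. Ywhae, which encodes 14-3-3 epsilon, had levels of 12.68, 12.92 and 9.97 on the E14 arrays labelled 14-3-3 epsilon ko/ko, while the mixed A and mixed B groups averaged 13.06 and 12.99, so 2 of those 3 libraries did not show the loss. Ndel1 averaged 9.82 in the E14 Ndel1 ko/cko group and 9.45 in the E14 ko/+ group, while mixed A was at 9.90 and mixed B at 9.91. At P0 Ndel1 averaged 9.56 in ko/cko and 9.33 in ko/+, with mixed A at 9.89 and mixed B at 9.74. At P14 it averaged 10.00 in ko/cko and 10.01 in ko/+, with mixed A at 10.39 and mixed B at 10.32. In neither the inbred Ndel1 ko/+ group at P0 nor the mix-labelled one at P14 was Ndel1 below its wild types. Of the 24 E14 arrays, 6 had 13 genes of midbrain, hindbrain and spinal cord at a mean of 4.49 to 4.71, against 5.46 to 6.61 on the other 18 arrays. At P0 and P14 the arrays fell on 2 sides, with mixed B, the Ndel1 and the Dcx groups on 1 and mixed A, the Lis1, the inbred and the mix-labelled Ndel1 groups on the other, which is why both mixed wild types had to be passed.

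The promoters of 35 of the 42 genes were found in the RefSeq table of build GRCm38.p6, as 38 windows of 250 bases before and 50 bases after a start. They are shown because the genes moved together, and because 2 short elements are known from promoters of genes transcribed late in the cell cycle, the CHR, which binds the DREAM and MuvB complexes, and the CCAAT box, which binds NF-Y. The CHR was searched as TTTGAA or in its variant form TTCGAA, and the other element by its own letters, CCAAT, on both strands. A CHR was present in 28 of 38 windows (73.7%), against 19.2% of all 32851 windows, and a CCAAT box in 27 of 38 (71.1%), against 37.4% of all. Both occurred in 25 of 38 windows (65.8%), against 7.52% of all, and 2 or more CCAAT boxes in 18 of 38 (47.4%), against 11.7% of all. For E2F the word TTCGCGC was searched along with the word TTGGCGC and further with TTCCCGC, and one of them was present in 8 of 38 (21.1%), against 8.07% of all. Windows of one gene overlap where it has 2 starts, so they are not independent, and a match is a description of the letters and not a bound site.

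The windows of 8 genes the results turn on are printed 5′ to 3′ on the gene's strand, with CHR and CCAAT matches of either strand in capitals. They are Bub1 at chr2:127831810-127832109, Cdc20 at chr4:118437294-118437593, Cdk1 at chr10:69352863-69353162, Cdca8 at chr4:124936868-124937167, Anln at chr9:22389157-22389456, Top2a at chr11:99024140-99024439 and Mki67 at chr7:135716330-135716629, all on the minus strand, and Mad2l1 at chr6:66534971-66535270 on the plus strand.
Bub1: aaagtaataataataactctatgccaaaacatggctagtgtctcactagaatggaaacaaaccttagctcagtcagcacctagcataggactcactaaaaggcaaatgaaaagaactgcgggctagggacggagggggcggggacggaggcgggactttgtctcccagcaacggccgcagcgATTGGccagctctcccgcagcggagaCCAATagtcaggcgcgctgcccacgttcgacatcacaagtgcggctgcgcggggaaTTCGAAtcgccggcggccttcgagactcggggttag
Cdc20: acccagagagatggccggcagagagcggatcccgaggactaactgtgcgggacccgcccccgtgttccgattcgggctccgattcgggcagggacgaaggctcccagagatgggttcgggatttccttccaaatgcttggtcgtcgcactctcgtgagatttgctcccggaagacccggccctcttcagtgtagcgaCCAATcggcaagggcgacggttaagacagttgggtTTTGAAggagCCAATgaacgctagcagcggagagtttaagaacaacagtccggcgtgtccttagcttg
Cdk1: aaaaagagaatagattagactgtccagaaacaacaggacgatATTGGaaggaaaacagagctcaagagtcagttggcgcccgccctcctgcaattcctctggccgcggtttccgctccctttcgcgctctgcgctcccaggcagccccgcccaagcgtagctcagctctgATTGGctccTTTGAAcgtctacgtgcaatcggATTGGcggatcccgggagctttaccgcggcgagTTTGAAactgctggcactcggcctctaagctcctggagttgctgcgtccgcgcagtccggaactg
Cdca8: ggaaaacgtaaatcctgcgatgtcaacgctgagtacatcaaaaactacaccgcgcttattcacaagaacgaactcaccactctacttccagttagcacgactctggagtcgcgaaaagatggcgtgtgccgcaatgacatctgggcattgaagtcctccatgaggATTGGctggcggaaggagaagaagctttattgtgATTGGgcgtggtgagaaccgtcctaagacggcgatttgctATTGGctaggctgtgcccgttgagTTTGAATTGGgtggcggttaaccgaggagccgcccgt
Anln: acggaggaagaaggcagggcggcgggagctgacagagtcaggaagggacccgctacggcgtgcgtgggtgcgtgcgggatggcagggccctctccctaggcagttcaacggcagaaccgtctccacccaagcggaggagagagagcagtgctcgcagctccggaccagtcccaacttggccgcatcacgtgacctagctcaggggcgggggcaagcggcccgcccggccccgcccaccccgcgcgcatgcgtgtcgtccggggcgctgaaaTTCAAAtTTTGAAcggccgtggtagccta
Top2a: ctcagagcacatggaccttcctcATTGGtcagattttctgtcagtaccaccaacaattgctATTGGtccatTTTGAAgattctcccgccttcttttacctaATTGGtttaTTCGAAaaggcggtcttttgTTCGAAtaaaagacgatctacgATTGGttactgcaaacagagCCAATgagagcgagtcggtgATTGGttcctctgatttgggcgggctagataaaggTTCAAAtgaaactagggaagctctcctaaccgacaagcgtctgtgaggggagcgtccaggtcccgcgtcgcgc
Mki67: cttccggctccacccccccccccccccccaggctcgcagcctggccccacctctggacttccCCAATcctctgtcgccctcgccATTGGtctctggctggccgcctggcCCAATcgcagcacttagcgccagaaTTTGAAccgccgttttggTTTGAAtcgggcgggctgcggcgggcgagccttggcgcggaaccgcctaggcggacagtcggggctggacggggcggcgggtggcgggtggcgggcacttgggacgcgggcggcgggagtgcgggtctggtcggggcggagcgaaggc
Mad2l1: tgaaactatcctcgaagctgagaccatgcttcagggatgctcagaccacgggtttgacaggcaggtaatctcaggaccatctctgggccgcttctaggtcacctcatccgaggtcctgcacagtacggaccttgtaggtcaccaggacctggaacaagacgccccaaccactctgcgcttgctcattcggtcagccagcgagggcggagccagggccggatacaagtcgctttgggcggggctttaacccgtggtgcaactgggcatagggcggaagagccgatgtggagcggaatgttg

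The Top2a window held 4 CHR and 6 CCAAT matches and the Cdk1 window 2 CHR and 3 CCAAT matches. In Cdca8 the CHR shares a base with a CCAAT box beside it. The Anln window held 2 CHR and no CCAAT match. In Mad2l1 none of the letters searched was found in this window.

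Mitosis genes fell steeply across wild-type brain development. At P0 all 42 were lower than at E14 in the mixed wild types, against 35% of the 12865 genes tested that were lower and 14.8% that were higher. Their median difference was -2.38, or -2.19 relative to the median gene, which itself moved by -0.19. On the arrays, all 6 P0 values lay below all 6 E14 values for each of the 42 genes, against 33.2% of all genes with arrays all lower and 14.4% with arrays all higher. All 42 passed the filter on low values through their E14 level, so their number among the genes tested says nothing of P0. In bulk tissue, fewer dividing cells and less RNA per dividing cell cannot be told apart. Without the 6 E14 arrays of low hindbrain level, which left only replicate 1 of mixed A at E14, the median difference was -2.25, with Pttg1 at -1.36. After quantile normalization over all arrays the 42 genes were all lower, with a median of -2.15, while 43.2% of the genes called were lower, against 70.3% with the values as deposited.

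**Figure D1:**
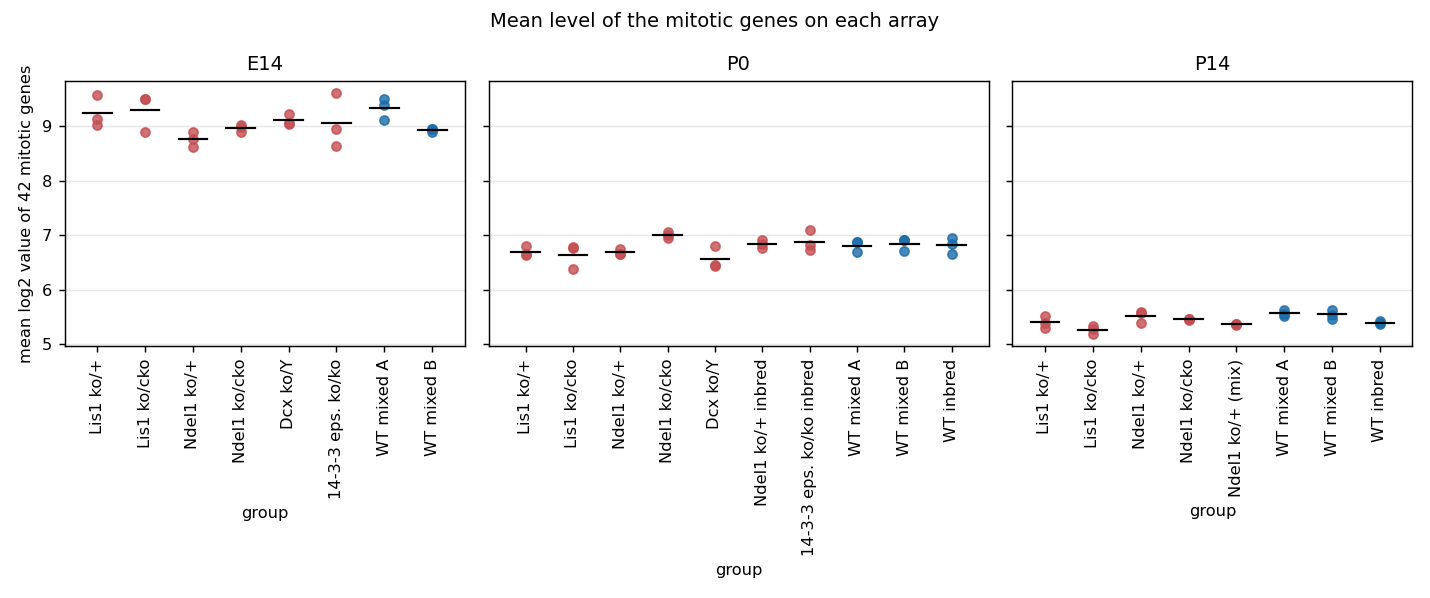
Mean log2 level of the 42 mitosis genes on each of the 78 arrays, by group, in panels for E14, P0 and P14, with mutant groups in red left of wild types in blue and a black bar at each group's mean. E14 arrays lie at 8.62 to 9.61, above every array of P0 and P14, and the spread within a group is widest in 14-3-3 epsilon ko/ko at E14, with an SD of 0.49.

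Spindle checkpoint genes had the widest spread of falls. Bub1, a kinase that recruits checkpoint proteins to kinetochores, had a lowest, median and highest level of 9.07, 9.41 and 9.90 at E14, 5.45, 5.84 and 6.23 at P0, and 3.88, 4.04 and 4.13 at P14 over the 6 mixed wild-type arrays of each age. The 3 ages did not overlap. The difference at P0 was -3.63 ± 0.13 (SE; adjusted p = 9.31e-15), and relative to the median gene Bub1 was 10.8-fold lower. Over the mean of its probe sets the difference was -2.34. Cdc20, the activator of the anaphase-promoting complex that the checkpoint inhibits, was at 10.59, 10.78 and 11.19 at E14, 7.89, 8.15 and 8.32 at P0, and 5.85, 5.97 and 6.10 at P14. Its 2 steps were of like size, -2.50 and -2.29 relative to the median gene. Mad2l1, which binds Cdc20 within the checkpoint complex, was at 9.85, 10.00 and 10.26 at E14, 7.96, 8.19 and 8.36 at P0, and 7.68, 7.84 and 8.19 at P14. It fell by 1.85 ± 0.09 before birth and by only 0.29 ± 0.09 after it (adjusted p = 0.0105), with P14 arrays overlapping those of P0. Bub3, the adaptor of Bub1, had the smallest fall of the 42 genes before birth, -0.94 ± 0.07 (adjusted p = 3.54e-10), with arrays at 10.44, 10.54 and 10.60 at P0, against 11.41, 11.49 and 11.53 at E14. Bub1b, the kinase BubR1, had medians of 8.76, 5.84 and 5.09 at E14, P0 and P14, with a difference at P0 of -2.85 ± 0.20 that was -1.79 over the mean of its probe sets, and Ttk, the kinase Mps1 that starts checkpoint signalling, medians of 8.09, 5.86 and 4.27. Over the 6 checkpoint genes the difference at P0 relative to the median gene had a median of -2.31.

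Among the regulators of entry into mitosis, Cdk1, the kinase whose activity defines mitosis, was at 9.65, 9.81 and 10.21 at E14, 7.20, 7.69 and 7.95 at P0, and 6.0, 6.49 and 6.72 at P14. Its arrays of the 3 ages did not overlap, and it was 4.09-fold lower at P0 relative to the median gene. Ccna2, its S and G2 phase cyclin partner, had medians of 10.00, 7.86 and 6.09 at E14, P0 and P14, and Ccnb2, a mitotic cyclin, medians of 9.34, 7.05 and 5.09. Melk, a kinase of dividing progenitors, fell most of these 8 genes before birth, with medians of 8.71, 5.94 and 4.14 and a difference at P0 of -2.87 ± 0.17. Aurka and Plk1, kinases of centrosome maturation and spindle assembly, had medians of 8.59, 6.15 and 5.48, and of 7.93, 6.61 and 5.83. Nek2, a centrosome kinase, had medians of 7.88, 5.43 and 4.23, and Cdc25c, the phosphatase that activates Cdk1, 6.78, 4.94 and 4.55. The 8 relative differences at P0 lay between -2.68 and -1.29.

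The 4 genes of the chromosomal passenger complex, which corrects faulty kinetochore attachments, moved by like amounts before birth. Their differences at P0 relative to the median gene lay between -2.30 and -1.99. After birth Birc5 and Cdca8 moved by -2.01 each, Aurkb, under the filter at both ages, by -1.17 and Incenp by -0.63. Cdca8, the subunit borealin, was at 9.77, 9.97 and 10.40 at E14, 7.10, 7.62 and 8.04 at P0, and 5.36, 5.78 and 5.91 at P14. Birc5, survivin, had medians of 9.18, 6.78 and 4.97, Aurkb, the catalytic kinase, medians of 7.36, 5.05 and 3.88, and Incenp, the scaffold, medians of 9.99, 7.96 and 7.43.

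Kinetochore genes fell to a like extent, with a median of -2.29 relative to the median gene over 8 genes. Spc25 of the Ndc80 complex, which grips microtubules, was at 9.71, 9.90 and 10.28 at E14, 6.51, 7.09 and 7.39 at P0, and 5.41, 5.79 and 6.06 at P14. Nuf2, of the same complex, was at 7.77, 8.43 and 8.74 at E14, 5.25, 5.54 and 5.69 at P0, and 4.61, 4.96 and 5.73 at P14. Nuf2 overlapped between P14 and P0. The difference of Spc25 at P0 was -2.97 ± 0.15, and -1.68 over the mean of its probe sets. Ndc80 itself had medians of 7.31, 5.06 and 4.6, and Spc24 7.74, 6.22 and 5.25. Cenpa, the histone of the centromere, had medians of 9.43, 7.26 and 6.10, the motor Cenpe 8.67, 6.10 and 4.88, the large outer kinetochore protein Cenpf 9.27, 6.90 and 4.92, and Knstrn, a partner of the spindle protein astrin, 8.28, 5.97 and 4.79.

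The spindle and cytokinesis genes held both the largest fall before birth and the 1 gene that rose after it. Ect2, the exchange factor that activates RhoA at the division plane, was at 8.30, 8.56 and 8.74 at E14, 3.93, 4.83 and 5.18 at P0, and 3.66, 3.97 and 4.31 at P14. It fell by 3.78 ± 0.15 before birth (adjusted p = 8.82e-14), to a mean at P0 of 4.74 that lies under the filter of 5.253, so the size of this step and of the later one rests on levels not shown to be above background. Tpx2, which activates Aurora A on the spindle, was at 9.10, 9.36 and 10.00 at E14, 6.40, 6.69 and 6.83 at P0, and 4.15, 4.28 and 4.64 at P14, so its 3 ages did not overlap. Its difference at P0 was -2.83 ± 0.13, and -1.47 over the mean of its probe sets. Racgap1, of the centralspindlin complex, fell by 1.14 ± 0.13 at P0 on the probe set shown, the second smallest fall among those shown. By it 39.7% of the fall of Racgap1 came before birth. A further probe set of Racgap1 fell by 2.08 ± 0.13 before birth and by 1.80 ± 0.13 after it. Nusap1, which binds spindle microtubules, had medians of 9.79, 7.43 and 5.21, and the midzone bundler Prc1 9.03, 7.12 and 5.56.

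Anln, anillin, scaffolds the contractile ring and is also known from myelin of oligodendrocytes. It was at 8.18, 8.44 and 8.80 at E14, 5.05, 5.46 and 5.54 at P0, and 5.73, 5.95 and 6.17 at P14. The 6 P14 arrays all lay above the 6 P0 arrays, and the rise was 0.56 ± 0.18 (adjusted p = 0.0133). Its earlier fall was -3.11 ± 0.18, and -1.97 over the mean of its probe sets. Without replicate 3 of mixed A at P0 its adjusted p was 0.0507, and without replicate 1 of mixed B at P14 it was 0.0729. In the inbred wild types Anln was at 5.32, 5.59 and 5.82 at P14, against 5.50, 4.61 and 5.22 at P0, a rise of 0.47 ± 0.18 (adjusted p = 0.0239) with arrays that overlapped. Without inbred replicate 2 at P0 that rise was 0.22 (adjusted p = 0.251), and without inbred replicate 2 or 3 at P14 its adjusted p was 0.0531 or 0.126. Over the 6 genes of oligodendrocyte precursors, 4 rose and none fell from P0 to P14 in the mixed wild types, among them Gpr17 by 3.87 and Sox10 by 1.97. Their part in the rise of Anln was not tested.

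Among genes of chromosome structure, Mki67, which coats mitotic chromosomes and is the usual proliferation marker, was at 10.66, 10.73 and 11.26 at E14, 8.10, 8.51 and 8.75 at P0, and 5.78, 5.91 and 6.30 at P14. The 3 ages did not overlap, and the later step was the larger, -2.64 relative to the median gene at P14 against -2.19 at P0. Top2a, which untangles sister DNA, was at 10.58, 10.77 and 11.38 at E14, 8.05, 8.21 and 8.65 at P0, and 6.04, 6.45 and 6.72 at P14. Its step after birth was -1.85 ± 0.15, and -0.44 over the mean of its probe sets. Smc2 and Smc4, the ATPase arms of condensin, had medians of 10.08, 8.34 and 6.68, and of 10.35, 8.38 and 6.99. The condensin I subunits Ncaph, Ncapd2 and Ncapg had medians of 9.48, 7.6 and 5.87, of 8.87, 7.55 and 6.0, and of 7.75, 5.41 and 3.75, and the condensin II subunit Ncapg2 7.12, 5.26 and 4.13. On the probe sets shown, less than 50% of the fall came before birth for Ncapd2 (43.6%), Mki67 (45.4%), Ncaph (48.6%) and Smc2 (49.7%), as it did for Racgap1 and for Nusap1 (49.4%). No error was computed for these shares. A further probe set of Ncaph fell by 2.27 ± 0.15 before birth and by 1.23 ± 0.15 after it, so the split depends on the probe set.

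Espl1, separase, had medians of 7.0, 5.56 and 4.6. Pttg1, its inhibitor securin, was at 10.66, 11.26 and 11.61 at E14, 9.31, 9.78 and 10.02 at P0, and 8.01, 8.48 and 10.56 at P14. The value of 10.56 came from replicate 1 of mixed A at P14, whose other 2 replicates were at 8.01 and 8.02. Pttg1 was lower at P0 (-1.42 ± 0.41, adjusted p = 0.00568) and not called after birth (-1.06 ± 0.41, adjusted p = 0.113).

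Between P0 and P14, 38 of the 42 genes were lower in the mixed wild types, against 22.1% of all genes, and only Anln was higher, against 34.3%. Their median difference was -1.26, or -1.40 relative to the median gene. Bub1b (-0.85 ± 0.20, adjusted p = 0.0723), Nuf2 (-0.45 ± 0.23, adjusted p = 0.342) and Pttg1 were not called. A further probe set of Bub1b was called lower, at -1.19 ± 0.18 (adjusted p = 1.01e-05). Arrays were all lower for 35 genes, against 17.6% of all genes, and all higher for Anln alone, against 29% of all genes. They overlapped for Mad2l1, Cdc25c, Ndc80, Nuf2, Ect2 and Pttg1. The largest falls were those of Mki67 (-2.51), Tpx2 (-2.34), Cdc20 (-2.16) and Nusap1 (-2.13). Over the mean of their probe sets they were -2.51 for Mki67, -0.82 for Tpx2, -1.39 for Cdc20 and -1.06 for Nusap1, so the order depends on the probe set. The actin 3′ minus 5′ difference was 0.497 to 0.956 on the mixed wild types at P14, against 0.154 to 0.358 at P0, with no overlap, and its part in the falls after birth was not tested. In the inbred wild types 40 were lower, against 33.8% of all genes, and only Anln was higher, against 38% of all genes, with Ndc80 not called. Arrays of the inbred wild type were all lower for 40 genes, against 34.3% of all genes, and overlapped for Ndc80 and Anln.

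**Figure D2:**
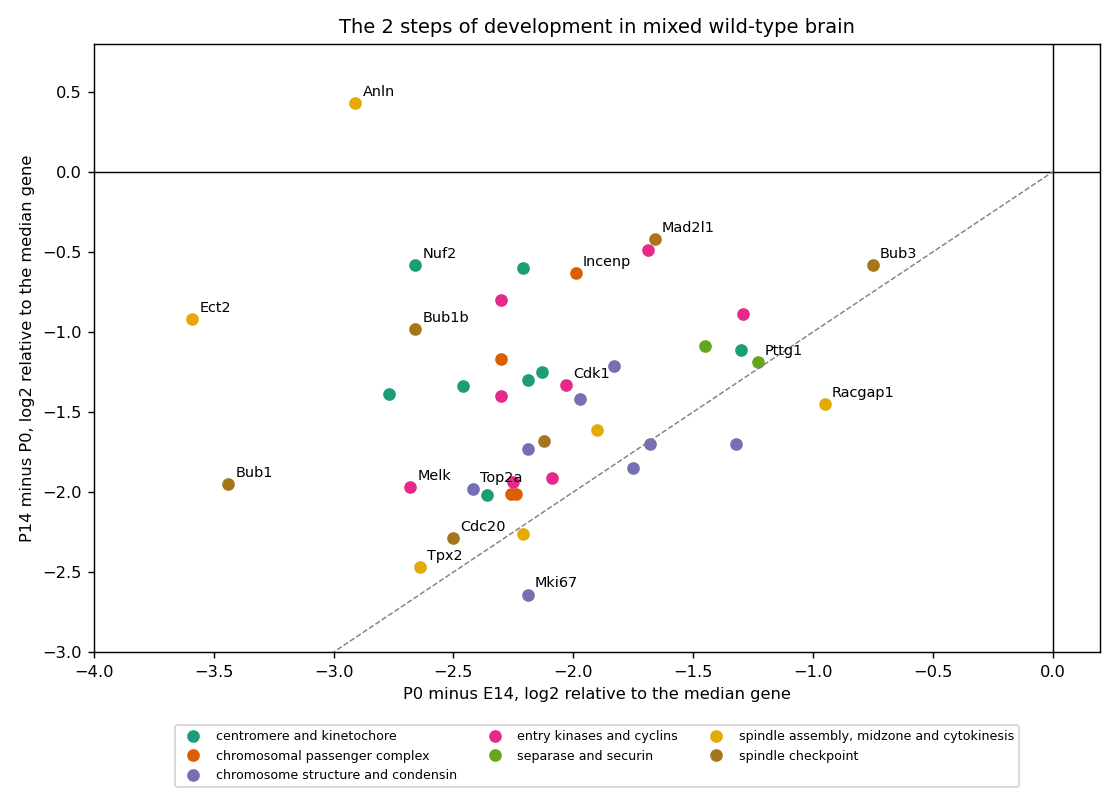
Difference of each of the 42 genes at P0 against E14 (horizontal) and at P14 against P0 (vertical) in mixed wild types, in log2 units relative to the median gene, coloured by role, with a dashed line where both falls are equal. Ect2 lies far left with a small later fall, Mki67 lies low, and Anln is the only point above 0.

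At P14 the median difference from E14 was -3.50 relative to the median gene, with 57.4% of the fall before birth at the median. By the probe sets shown, most of the fall came before birth for 36 genes and after it for 6. In each mixed wild type 19 of the 42 lay under the filter at P14, where a level near background can understate the later step. Among genes over the filter Mki67 was 28.5-fold and Cdc20 27.8-fold lower at P14 than at E14, while Anln was 5.59-fold and Bub3 2.51-fold lower. Of 77 probe sets for these genes that were tested, 76 were lower and none higher at P0. From P0 to P14, 58 were lower and 2 higher in the mixed wild types, and 65 lower and 4 higher in the inbred ones. Nek2 has a further probe set, which rose by 0.96 ± 0.17 at P14 in the mixed wild types (adjusted p = 0.00953), against -1.27 ± 0.15 for the one shown. In the inbred wild types further probe sets of Top2a (0.44 ± 0.13), Cdc25c (0.50 ± 0.17) and Nek2 (0.80 ± 0.17) were called higher. Those shown were at -1.89, -0.66 and -1.47.

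Other genes of the cell cycle fell alongside, by counts that varied with their roles. Of 16 other spindle motors and midzone genes 15 were lower at P0 and none higher, with Kif20a at -3.29 and Kif11 at -2.90, motors of cytokinesis and of bipolar spindles. Of 32 other centromere and kinetochore genes 29 were lower and none higher, including Ska1 at -3.16. Genes of G1-S and DNA replication were lower for 30 of 31, including Cdc6 at -3.21 and Ccne2 at -2.94, with none higher. Subunits and partners of the anaphase-promoting complex fell in 16 of 18 cases and rose in none, but by less, with a median of -0.34 relative to the median gene against -2.19 for the mitosis genes. Lower counts were also found for cohesin and condensin II (11 of 15), entry enzymes (10 of 13) and the DREAM, MuvB, E2F and FOXM1 regulators (14 of 20), with none higher. Among markers, 8 of 10 radial glia genes were lower, including Sox3 at -2.76, and 1 was higher, and all 7 intermediate progenitor genes were lower, including Nhlh1 at -3.59. Of 8 neuron genes 4 were higher and none lower. After birth Cit, the citron kinase of the midbody, was the exception among the motors, with a rise of 2.23 ± 0.11.

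At E14 none of the 42 genes was called in any of the 6 mutants against both mixed wild types. The share of all 11744 genes that was called was 0% in Lis1 ko/cko, Lis1 ko/+, Ndel1 ko/cko and 14-3-3 epsilon ko/ko, 0.0341% in Ndel1 ko/+ and 0.0426% in Dcx ko/Y. At an unadjusted p under 0.05 no gene of the 42 passed in 5 of the mutants, and 1 passed in Dcx ko/Y. The share of all genes at an unadjusted p under 0.05 was not counted, here or below. Without the 2 libraries that had not lost Ywhae 1 array remained in 14-3-3 epsilon ko/ko, too few for a count to bear on that result. The median difference lay between -0.42 in Ndel1 ko/+, where 40 of 42 were negative, and 0.17 in Lis1 ko/cko, where 37 of 42 were positive. Of all genes 50.6% were positive in Ndel1 ko/+ and 55.4% in Lis1 ko/cko. Direct comparisons of ko/cko with ko/+ also gave 0 called genes, for Lis1 (0.0426% of all genes) and for Ndel1 (0.128% of all genes). Without the 6 arrays of low hindbrain level, only replicate 2 of Lis1 ko/cko was left in its group. Ncapd2 was higher by 0.50 and Pttg1 lower by 0.77 on it than in Lis1 ko/+, which is too few arrays to bear on the result. Prc1 was higher by 0.35 ± 0.08 in Ndel1 ko/cko than in ko/+ in the same setting. These 3 were chosen by that alternative and not called with all arrays.

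At E14 much of the spread lay within groups, and markers of brain region and of several cell types moved with it. The 6 arrays of lowest midbrain, hindbrain and spinal cord level were replicates 1 and 3 of Lis1 ko/cko, replicate 1 of Lis1 ko/+, replicate 2 of 14-3-3 epsilon ko/ko and replicates 2 and 3 of mixed A. The mean level of the 42 genes on them was 9.39 to 9.61 (median 9.50), against 8.62 to 9.23 (median 8.96) on the other 18 arrays. The ranges did not overlap, and the arrays came from 4 groups. Over the 24 arrays Pearson's r of the mean level of the 42 genes was -0.68 with those region genes (Spearman's rho -0.48), 0.79 with cortex genes (rho 0.51), 0.89 with radial glia, 0.94 with intermediate progenitors, 0.99 with G1-S genes and -0.93 with oligodendrocyte precursors. It was -0.68 with meninges (rho -0.45), -0.61 with choroid plexus (rho -0.43), -0.59 with endothelium (rho -0.27) and -0.55 with neurons (rho -0.78). The neuron level was lowest on the Dcx ko/Y arrays, where Dcx itself was lost, and these arrays weigh on that r. All of these are a description of arrays that share dissection and normalization. Mki67 shows the size of it, at 11.20, 10.43 and 10.79 in Lis1 ko/cko, 11.26, 10.84 and 10.66 in Lis1 ko/+, 10.61, 11.12 and 10.29 in 14-3-3 epsilon ko/ko, and 10.77, 11.08 and 11.26 in mixed A, with 10.68, 10.66 and 10.67 in mixed B. On the same 6 arrays the mean level of meningeal genes was 5.54 to 9.08 and that of choroid plexus genes 4.63 to 7.95, against 8.80 to 9.77 and 7.57 to 8.27 on the other 18. The part of the tissue taken and of these cell types in the differences was not tested.

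**Figure D3:**
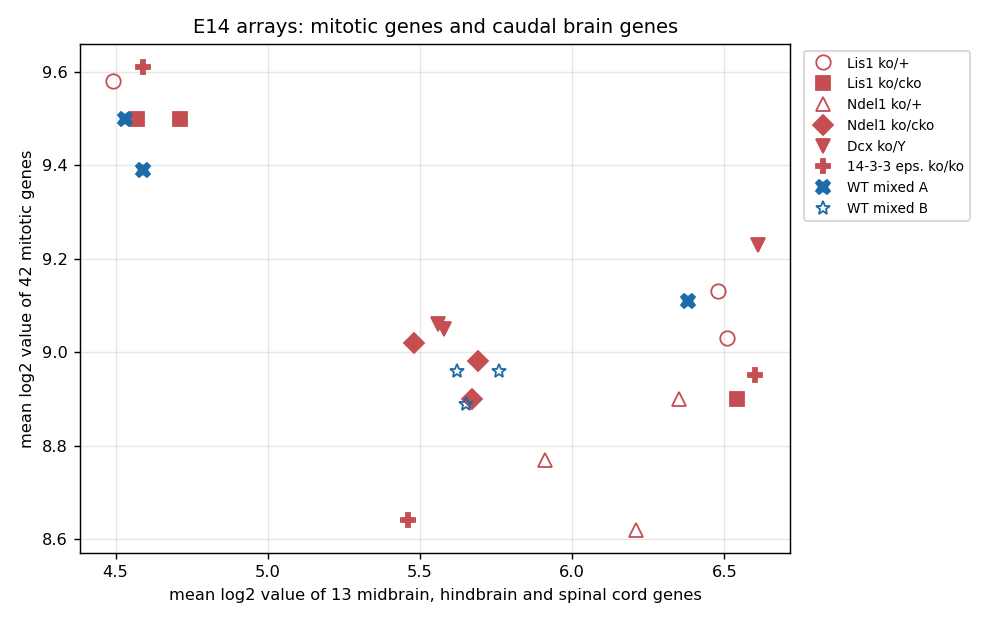
Mean log2 level of the 42 mitosis genes (vertical) against the mean log2 level of 13 genes of midbrain, hindbrain and spinal cord (horizontal) on the 24 E14 arrays. Wild types are blue and mutants red, with a marker for each group. The 6 arrays with a region level of 4.71 or less lie at 9.39 or higher, above all the others.

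At P0, 40 of the 42 genes were tested, since Aurkb and Ndc80 lay under the filter in every group. Against both mixed wild types no gene was called in Lis1 ko/+ (0% of 11780 genes) or Dcx ko/Y (0.0255%), where 1 and 8 of the 40 genes had an unadjusted p under 0.05, and none was called in Dcx ko/Y without the array that carried Xist. On the inbred background none was called in Ndel1 ko/+ (0.255%) or 14-3-3 epsilon ko/ko (0.0255%) against inbred wild type, where 0 and 1 had an unadjusted p under 0.05. Lis1 ko/cko against ko/+ gave none (0.569%), with 2 under an unadjusted p of 0.05.

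Mad2l1 was the 1 gene lower in Lis1 ko/cko at P0, where 0.306% of all genes were lower and 0.0255% higher. Its levels were 7.40, 7.59 and 7.62 in Lis1 ko/cko and 7.65, 7.95 and 8.04 in Lis1 ko/+, against 7.96, 8.0 and 8.11 in mixed A and 8.30, 8.36 and 8.28 in mixed B. All 3 Lis1 ko/cko arrays lay below all 6 wild types and below all 3 Lis1 ko/+ arrays. The difference was -0.63 ± 0.11 (adjusted p = 0.0421), and it lost the call when any 1 of the 9 arrays was left out, with adjusted p-values over all alternatives of 7.38e-06 to 0.23. With the replicate number as a block its adjusted p was 0.0534. Mad2l1 was also lower in mixed A than in mixed B.

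Ncapg2, a subunit of condensin II, was the 1 gene higher at P0 in both Ndel1 genotypes of mixed background against both mixed wild types. It was at 6.12, 5.97 and 6.16 in Ndel1 ko/cko and 5.71, 6.29 and 6.0 in Ndel1 ko/+, against 5.06, 5.23 and 4.76 in mixed A and 5.36, 5.30 and 5.44 in mixed B. All 6 mutant arrays lay above all 6 wild types. The difference was 0.90 ± 0.15 in ko/cko (adjusted p = 0.0164), where 0.136% of all genes were higher and 0.713% lower, and 0.81 ± 0.15 in ko/+ (adjusted p = 0.0138), where 1.43% were higher and 2.62% lower. These comparisons share their control arrays. The actin 3′ minus 5′ difference, a sign of RNA integrity and labelling, was 0.385 to 0.449 on the 6 mutant arrays, against 0.154 to 0.358 on the 6 wild types, and its part in the Ncapg2 difference was not tested. The ko/cko call was lost without replicate 1 or 2 of mixed B or replicate 1 or 3 of ko/cko, and the ko/+ call without replicate 2 of mixed B or replicate 2 or 3 of ko/+.

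More genes were called between Ndel1 ko/cko and ko/+, a test against 1 group, than between either and both mixed wild types. The level of Ndel1 itself at P0 was lower in ko/+ (9.33) than in ko/cko (9.56). Of 40 genes 6 (15%) were higher in ko/cko, against 5.93% of all genes, and none was lower, against 3.21%. In 39 of the 40 the difference was positive, against 59.3% of all genes, with a median of 0.31, and 18 had an unadjusted p under 0.05. Top2a was at 8.45, 8.50 and 8.51 in ko/cko, against 7.75, 7.90 and 7.91 in ko/+, with 8.05, 8.39 and 8.65 in mixed A and 8.12, 8.19 and 8.22 in mixed B. Its difference was 0.63 ± 0.16 (adjusted p = 0.0122), and over the mean of its probe sets 0.23 (adjusted p = 0.164). Ttk was at 6.06, 6.23 and 6.0 in ko/cko, against 5.41, 5.51 and 5.51 in ko/+. It differed by 0.62 ± 0.17 (adjusted p = 0.0225). Mki67 was at 8.76, 8.64 and 8.80 in ko/cko, against 8.15, 8.26 and 8.01 in ko/+, and Cenpf at 7.04, 7.12 and 7.07, against 6.50, 6.55 and 6.39. The differences were 0.60 ± 0.17 (adjusted p = 0.0264) for Mki67 and 0.60 ± 0.17 (adjusted p = 0.0293) for Cenpf, the second at 0.32 (adjusted p = 0.0552) over the mean of its probe sets. Mki67 lost the call in 1 fit of all arrays (adjusted p = 0.0644) and with quantile normalization (adjusted p = 0.0518). Nusap1 was at 8.11, 7.98 and 8.01 in ko/cko, against 7.51, 7.47 and 7.29 in ko/+, and Smc4 at 8.74, 8.70 and 8.89, against 8.14, 8.31 and 8.44. The differences were 0.61 ± 0.19 (adjusted p = 0.0415) for Nusap1 and 0.48 ± 0.13 (adjusted p = 0.0171) for Smc4. Nusap1 was at 0.33 (adjusted p = 0.0773) over the mean of its probe sets, and lost the call without a filter (adjusted p = 0.0538) and with quantile normalization (adjusted p = 0.0721). The ko/cko arrays of each of the 6 genes lay above the ko/+ arrays, which adds no support, since the genes were chosen by their call between these groups. The 6 mixed wild-type arrays ranged over 5.72 to 5.94 for Ttk, 8.10 to 8.75 for Mki67, 6.38 to 7.0 for Cenpf, 7.01 to 8.06 for Nusap1 and 7.96 to 8.54 for Smc4. None of the 6 genes was called in either mutant against both mixed wild types. The count fell to 0 without replicate 1 of ko/+, to 3 without replicate 2 of ko/+, and to 2 without replicate 3 of ko/+ or any 1 ko/cko array.

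**Figure D4:**
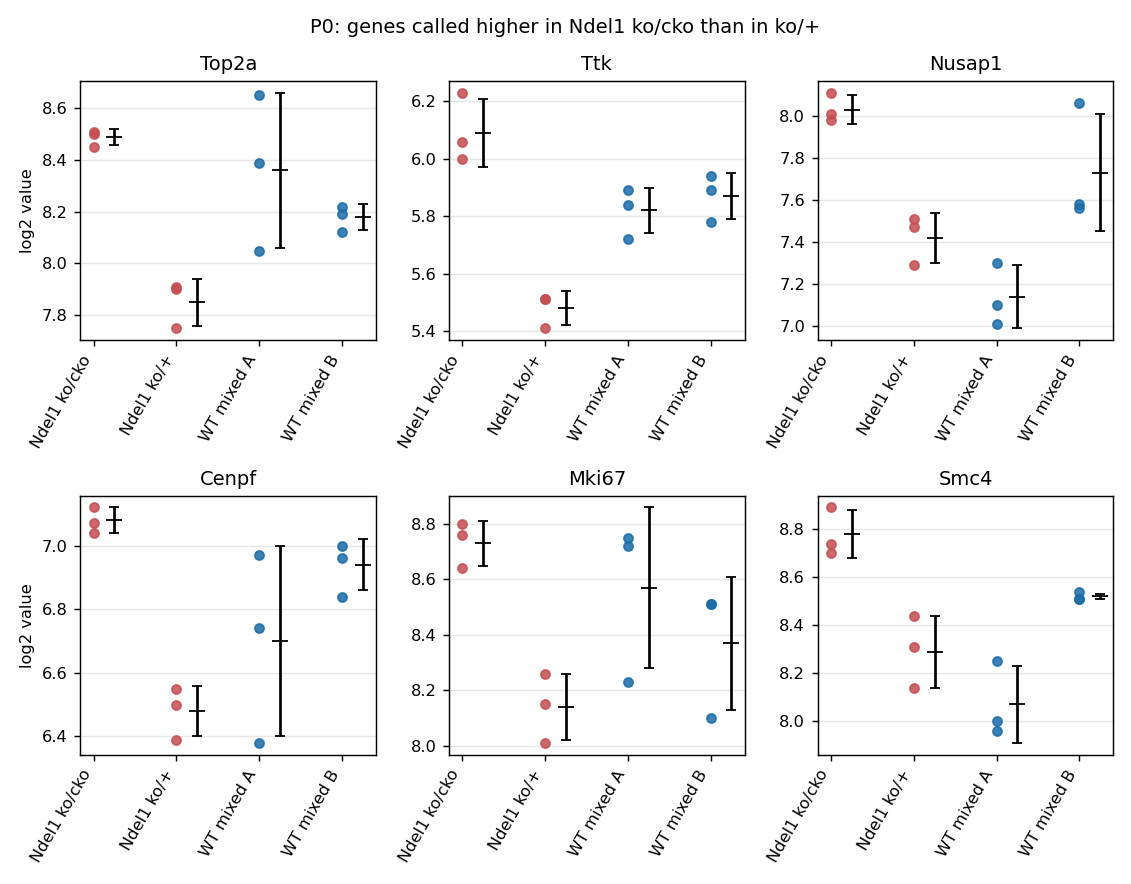
Log2 levels at P0 of Top2a, Ttk, Nusap1, Cenpf, Mki67 and Smc4 in Ndel1 ko/cko, Ndel1 ko/+, mixed A and mixed B wild types, with a point per array and a bar at the mean ± SD of 3 arrays. The 6 genes were chosen by their call between ko/cko and ko/+, and the ko/cko points lie above the ko/+ points in all 6 panels. The 6 wild-type points of Ttk lie between the 2 mutants.

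Markers of progenitors and of other cells differed in the same comparison. Of 5 intermediate progenitor genes tested 3 were higher in Ndel1 ko/cko than in ko/+, Eomes by 1.36 ± 0.17, Insm1 by 0.97 and Neurog2 by 0.89, and none was lower. The summed linear level of that list was 920 to 998 in ko/cko and 620 to 651 in ko/+, against 775 to 826 in mixed A and 702 to 799 in mixed B. Of 28 G1-S and replication genes 9 were higher, including Mcm7 by 0.82 and Cdk4 by 0.67. Of the radial glia genes Pax6, Vim, Notch1 and Nes were higher and Slc1a3 lower, with summed levels of 13581 to 14353 in ko/cko against 13848 to 14675 in ko/+. Of 14 other spindle motors and midzone genes none was higher, and Cit was lower by 0.60. Of 8 neuron genes Tubb3 was higher and Rbfox3 (-0.36), Syt1 and Stmn2 lower, of 6 oligodendrocyte precursor genes Olig1 was lower (-0.38), and of 6 endothelial genes Pecam1 was higher (0.59). None was called among the tested genes of granule precursors, red blood cells, microglia, meninges, hindbrain, cortex and choroid plexus. The part of these lists in the differences of the 6 genes was not tested.

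At P14, 26 of the 42 genes were tested and 16 lay under the filter in every group, namely Aurkb, Birc5, Bub1, Cdc25c, Cenpe, Cenpf, Ect2, Espl1, Knstrn, Melk, Ncapg, Ncapg2, Ndc80, Nek2, Tpx2 and Ttk. No gene was called against both mixed wild types in Lis1 ko/+ (0% of 12297 genes), Ndel1 ko/cko (0.0895%), Ndel1 ko/+ (0%) or the mix-labelled Ndel1 ko/+ group (0.114%), where 4, 1, 1 and 4 genes had an unadjusted p under 0.05. Ndel1 ko/cko against ko/+ gave none either (0.309%), with 3 under an unadjusted p of 0.05.

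Mki67, Top2a, Cdca8 and Cdk1 were lower in Lis1 ko/cko at P14, 4 of 26 genes against 2.8% of all genes, and none was higher, against 3.52%. The median difference of the 26 was -0.40, with 23 negative, while 55.5% of all genes were positive, and 9 had an unadjusted p under 0.05. Mki67 was at 4.58, 4.41 and 5.41 in Lis1 ko/cko and 5.24, 5.86 and 5.57 in Lis1 ko/+, against 6.30, 6.03 and 5.87 in mixed A and 5.95, 5.78 and 5.85 in mixed B. Every ko/cko array lay below every wild type, and the difference was -1.16 ± 0.23 (adjusted p = 0.0113). The ko/cko arrays at 4.58 and 4.41 lie under the filter of 5.253. The size of any Mki67 difference from this group therefore rests on levels not shown to be above background. Top2a was at 5.19, 5.37 and 5.97 in Lis1 ko/cko and 6.05, 6.30 and 6.11 in Lis1 ko/+, against 6.72, 6.66 and 6.65 in mixed A and 6.26, 6.04 and 6.2 in mixed B. The ko/cko arrays again lay below all others, with a difference of -0.91 ± 0.17 (adjusted p = 0.0244) that was -0.20 over the mean of its probe sets, not called. The other probe sets of Top2a in that mean lay under the filter at P14 and were not tested.

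Cdk1 was at 5.54, 5.70 and 6.05 in Lis1 ko/cko and 6.18, 6.27 and 6.47 in Lis1 ko/+, against 6.51, 6.68 and 6.72 in mixed A and 6.43, 6.0 and 6.46 in mixed B. A mixed B array at 6.0 lay within the ko/cko range, and the difference was -0.71 ± 0.14 (adjusted p = 0.0243). Cdca8 was at 4.57, 5.02 and 4.81 in Lis1 ko/cko and 4.17, 5.36 and 5.22 in Lis1 ko/+, against 5.82, 5.75 and 5.36 in mixed A and 5.89, 5.91 and 5.64 in mixed B. Its difference was -0.92 ± 0.22 (adjusted p = 0.0233), with -0.07 and 0.18, not called, for its other 2 probe sets and -0.27 (adjusted p = 0.936) over their mean. Every ko/cko level of Cdca8 lies under the filter of 5.253, so the size of its fall also rests on levels not shown to be above background. Against Lis1 ko/+, ko/cko was lower for Mki67 (-0.76 ± 0.23, adjusted p = 0.0458), Top2a (-0.64 ± 0.17, adjusted p = 0.0264) and Cdk1 (-0.54 ± 0.14, adjusted p = 0.0227), 3 of 26 genes against 2.86% of all genes, and higher for none, against 5.16%. Top2a was at -0.28 (adjusted p = 0.103) over the mean of its probe sets, and Mki67 lost the call without a filter (adjusted p = 0.0574) and without the trend (adjusted p = 0.0572). All 3 were lost without replicate 1 or 2 of ko/cko or replicate 2 or 3 of ko/+.

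These calls rested on few arrays. Replicate 3 of Lis1 ko/cko was the highest of its group for Mki67, Top2a and Cdk1. Without replicate 1 the adjusted p was 0.0929 for Mki67, 0.194 for Top2a, 0.184 for Cdk1 and 0.157 for Cdca8, and without replicate 2 no gene was called either. Without replicate 3 there were 8 calls, and Mki67 differed by -1.47 (adjusted p = 0.000143). Over all its alternatives the adjusted p of Mki67 was 0.000143 to 0.108. With the wild types, the count was 1 without replicate 2 of mixed A and 2 without replicate 3 of mixed A or replicate 1 or 3 of mixed B.

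**Figure D5:**
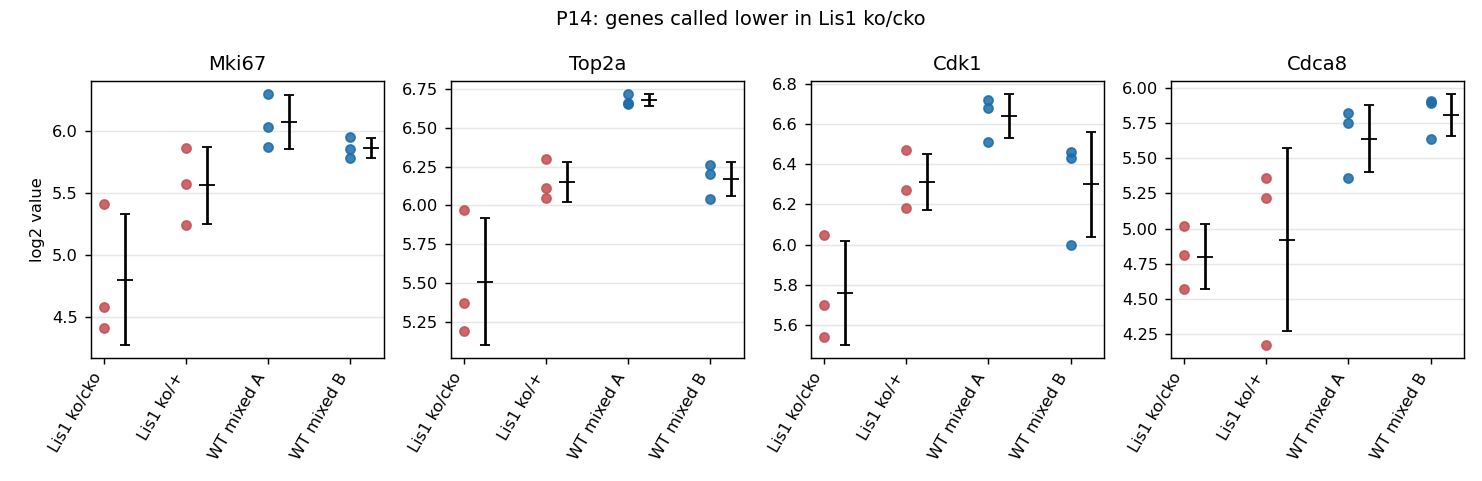
Log2 levels at P14 of Mki67, Top2a, Cdk1 and Cdca8 in Lis1 ko/cko, Lis1 ko/+, mixed A and mixed B wild types, with a point per array and a bar at the mean ± SD of 3 arrays. The ko/cko points lie below all wild-type points for Mki67, Top2a and Cdca8, and they overlap the ko/+ points for Mki67 and Cdca8 and a mixed B point for Cdk1.

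Other lists moved little or in part in Lis1 ko/cko at P14. None of 5 other spindle motors and none of 16 other centromere genes was called, Anapc1 was the 1 lower gene of 18 of the anaphase-promoting complex (-0.52), and of 27 G1-S genes Cdt1 was higher by 1.02 and Ccnd1 and Mcm5 lower by 0.60 and 0.47. Cdkn1a, the inhibitor p21, was higher by 1.15 ± 0.18 (adjusted p = 0.00462), 1 of 7 inhibitors tested. The oligodendrocyte precursor list summed to 4552 to 6328 on the linear scale in ko/cko and 5858 to 6343 in ko/+, against 5952 to 6264 in mixed A and 4675 to 5099 in mixed B, and 1 of its 6 genes was lower, Olig2 by 0.64. Its mean log2 level was 8.68, 8.67 and 9.18 on replicates 1 to 3 of ko/cko, highest on the replicate that was also highest for Mki67. Endothelial genes summed to 1468 to 1920 in ko/cko and 1697 to 2084 in ko/+, against 1986 to 2157 in mixed A and 1335 to 1462 in mixed B. Choroid plexus genes differed most, at 386 to 1378 in ko/cko and 7845 to 9979 in ko/+, against 9562 to 11861 in mixed A and 2825 to 11858 in mixed B, with Ttr lower by 4.38 ± 0.90. The part of these cell types in the 4 falls was not tested.

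The difference from wild type was itself compared between ages over all 78 arrays. For Lis1 ko/cko, none of the 42 genes was called for a difference that changed with age from E14 to P0 (0.138% of 13053 genes; 3 with an unadjusted p under 0.05) or from P0 to P14 (2.87%; 5). None was called for Ndel1 ko/cko from E14 to P0 (0.207%; 1) or from P0 to P14 (0.046%; 4). A call at P14 and none at birth is therefore not a shown difference between those ages.

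The 2 mixed wild types also differed from each other. At E14 no gene was called in mixed A against mixed B (0.0681% of all genes). Of the 42 genes 41 were higher in mixed A, against 56.4% of all genes. Their median difference was 0.42, and 17 had an unadjusted p under 0.05. At P0, 3 of 40 genes were higher in mixed A, against 18.1% of all genes, and 7 lower, against 10.7%. Cdc25c (0.47), Cdk1 (0.44) and Racgap1 (0.42) were higher, and Ect2 (-0.79), Nusap1 (-0.60), Spc25 (-0.54) and Smc4 (-0.45) were lowest. Over the mean of their probe sets Nusap1 was at -0.25 (adjusted p = 0.115), Spc25 at -0.20 (adjusted p = 0.136) and Smc4 at 0.05 (adjusted p = 0.779), none of them called. At P14, 5 of 26 were higher in mixed A, against 37.4% of all genes, and 4 lower, against 15.2%. Top2a (0.51), Racgap1 (0.43) and Cdk1 (0.34) were higher, and Ncaph (-0.58, or -0.23 with an adjusted p of 0.0915 over the mean of its probe sets), Bub1b (-0.43) and Mad2l1 (-0.29) lower. With the replicate number as a block the adjusted p was 0.0533 for Cdk1 at P0, and 0.0527 for Bub1b and 0.0514 for Incenp at P14. Cdk1 and Racgap1 were thus higher in mixed A at both ages and Mad2l1 lower, as was Incenp, whose difference at P14 (-0.27) was 0.10 (adjusted p = 0.26) over the mean of its probe sets.

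The 42 genes moved as 1 block across ages and less so within an age. Over all 78 arrays the correlation of a gene with the mean of the others had a median of 0.98, with Anln lowest at 0.84. After subtracting group means the median was 0.94 at E14, 0.65 at P0 and 0.34 at P14, where Plk1 reached -0.78. These values describe arrays that share labelling and normalization, and at P14 many of the genes lay under the filter.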

How the data were processed

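Total RNA of mouse brain was measured on 78 Affymetrix arrays in 26 groups of 3. The authors deposited log2 values, summarised by RMA per the submitters' processing notes, in a version the sources used here do not give. Extraction was with Trizol and labelling with biotin by in vitro transcription, per the labels' protocols. The median root mean square between sorted arrays was 0.03424 within an age and 0.1565 between ages, so differences between ages are also given relative to the median gene. The smallest root mean square difference between 2 arrays of a group was 0.1679, so none was a duplicate. The labels do not say that replicates came from separate litters, so p-values measure the spread between these arrays.

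Of 45101 probe sets 34958 name 1 gene in GEO's platform annotation, 932 name several and 9147 are not listed with a gene, besides 64 controls. The probe set brightest on average stood for a gene, which was tested where its highest group mean in the fit reached 5.253, the median of all values. Groups came from the labels. Linear models with 1 mean per group and a trend of variance with level were fitted with limma 3.58.1 under R 4.3.3, the tables being handled by data.table (1.17.8). A fit held the arrays of 1 age, all wild types where ages were compared, or all 78 arrays for the test of genotype by age. Adjusted p-values are Benjamini-Hochberg over all genes tested, and a gene was called at an adjusted p under 0.05. Against both mixed wild types the larger p was taken where signs were equal and 1 otherwise, with the mean difference and the larger SE. The fits were tested on simulated data. Figures were drawn with matplotlib 3.10.9 in Python 3.11.15. Promoters and their build are RefSeq's.

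The genes, their roles and the 20 other lists were chosen with earlier results of these data known. Per-array values are given for all genes in development by their range, and elsewhere for up to 4 called genes in each direction, by size, extended to the 6 called genes between the Ndel1 groups. For genes chosen by a call, arrays that do not overlap add no support to it. Alternatives were the filter, the mean of all probe sets, 1 fit of all arrays, quantile normalization, no trend, the replicate number as a block, either mixed wild type alone, the hindbrain level as a covariate, and leaving out arrays. The mean of all probe sets also holds probe sets under the filter, as for Bub1, Spc25 and Anln in development. A smaller difference over that mean need not come from a disagreeing probe set. Same-numbered replicates of an age did not deviate together on average, with a mean correlation of -0.03 at E14, 0 at P0 and 0.02 at P14. Single pairs ranged from -0.77 to 0.72 at E14, and such a mean cannot exclude pairing in some groups.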

Additional observations from a re-analysis of the deposited data

Results flagged for a closer look

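The step from E14 to P0 differed between the 2 mixed wild types for 11 of the 42 genes, in a limma test of background by age that was added after the data were seen and that called 10.4% of all genes. The fall was deeper in mixed A than in mixed B for each of them. The difference of the steps was -0.93 for Bub1 (adjusted p = 0.00298), -0.57 for Mad2l1, -0.88 for Ncapg2, -0.89 for Ect2, -0.85 for Spc25, -0.79 for Smc4, -0.57 for Cdc20, -0.69 for Smc2, -1.02 for Nusap1, -0.59 for Incenp and -0.72 for Ncapg (adjusted p = 0.0292). Replicates 2 and 3 of mixed A at E14 are among the 6 arrays of low hindbrain level, and without them, with 1 mixed A array left at E14, 0 of the 11 were called, with differences between -0.76 for Nusap1 (adjusted p = 0.205) and -0.27 for Incenp (adjusted p = 0.395), and -0.70 for Bub1 (adjusted p = 0.0622). From P0 to P14 the step differed for 1 of the 42 genes, Bub1b, by -0.85 in mixed A against mixed B, where 11.6% of all genes were called. The part of background, dissection and array side in these differences was not tested.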

How the results depend on the processing

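In development single genes were recomputed only for those with the largest falls and for Anln, and 476 of these 482 values kept their call, none with a reversed direction. Members called, with the lowest and highest count when 1 array was left out, were 42 to 42 at P0 against E14, 38 to 40 at P14 against P0 in mixed wild types and 39 to 41 in inbred ones. Requiring P0 levels over the filter, an alternative added after seeing the data, left 37 genes, of which 33 were lower and 1 higher at P14. Quantile normalization gave 42 lower, then 39 lower and 1 higher, and 41 lower in the inbred wild types.

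Mutant calls were less stable. Of 412 recomputed values of single genes 272 kept their call, 138 lost it and 2 reversed, Smc4 at P0 (0.05) and Incenp at P14 (0.10) in mixed A against mixed B, both over the mean of all probe sets. The single call in Lis1 ko/cko at P0 was lost (0) without a filter, in 1 fit of all 78 arrays, with quantile normalization and with the replicate block. The replicate block also ended the calls of Cdk1 at P0 and of Bub1b and Incenp at P14 in mixed A against mixed B, and moved no other count by over 1.5 times. The stricter filter of 7.627, which tests fewer genes, gave 0 in both Ndel1 genotypes at P0, 0 in Lis1 ko/cko at P14 against wild types or ko/+, 1 in mixed A against mixed B at P14 and 1 in the interaction of Lis1 with the later step. The mean of all probe sets gave 2 in Lis1 ko/cko at P14 and 5 in mixed A against mixed B at P0. Fitting all arrays together gave 1 in Dcx ko/Y at P0, 1 in Lis1 ko/cko against ko/+ at P0 and 5 in mixed A against mixed B at P14. Against mixed A alone there were 2 calls in Lis1 ko/cko, 11 in each Ndel1 genotype and 12 in Dcx ko/Y at P0, 8 in Lis1 ko/cko, 8 in Ndel1 ko/cko and 7 in the ko/+ animals at P14, and 2, 11 and 4 in the interactions of Lis1 with the later step and of Ndel1 with the earlier and later step. Of all genes 2.36%, 42.9% (Ndel1 ko/+), 33.8% (ko/cko) and 30% were called at P0, and 13.9%, 52.8% and 52.3% at P14. Against mixed B alone there were 13 in Lis1 ko/cko and 8 in ko/+ at P0, 15 in Lis1 ko/cko, 11 in ko/+ and 12 in mix-labelled Ndel1 ko/+ at P14, and 15 and 3 in the interactions of Lis1 with the earlier and later step. Of all genes 32.8% and 20.7% were called at P0, and 59.7%, 52.6% and 52.6% at P14. Without the 6 E14 arrays of low hindbrain level ko/cko against ko/+ gave 1 for Ndel1. For Lis1 only replicate 2 of ko/cko was then left, too few for a count.

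Leaving out 1 array gave 0 to 0 calls in Lis1 ko/cko at P0, 0 to 1 in Dcx ko/Y and each Ndel1 genotype at P0, 0 to 1 in Lis1 ko/cko against ko/+ at P0, 0 to 3 in Ndel1 ko/cko against ko/+ at P0, 0 to 8 in Lis1 ko/cko at P14 and 0 to 5 against ko/+, 6 to 8 and 5 to 8 in mixed A against mixed B at P0 and P14, and 0 to 1 and 0 to 3 in the interactions of Lis1 with the earlier and later step. The call in Dcx ko/Y appeared without replicate 1 of mixed B or of Dcx ko/Y, and that of Lis1 ko/cko against ko/+ at P0 without replicate 1 of ko/+. The causes were not tested. At P14, 16 of the 42 genes lay under the filter in every group, where array signal limits any statement. In Lis1 ko/cko at P14, 25 of the 42 had a group mean under the filter, among them Mki67 and Cdca8.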
